A study of Mus musculus with 12 samples.

Results

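The genes described here are the bile acid and organic anion transporters of the liver cell, 10 genes picked by symbol for their place in hepatic transport out of the 54532 genes listed for the liver of 12 mice. *Slc10a1*, *Slco1b2*, *Slco1a1* and *Slco1a4* encode carriers that take up bile acids and other organic anions from blood. *Abcb11*, *Abcb4*, *Abcc2* and *Atp8b1* encode proteins of the canalicular membrane, through which bile is formed. *Abcc3* and *Abcc4* encode pumps that return conjugates to blood. All 12 mice were male C57BL/6J animals with no genetic change named, placed on their diets at 5 weeks of age and kept on them for 26 weeks. ND-fed mice received a normal diet, control mice a high-fat diet, HYA-treated mice the high-fat diet with 1% HYA, and LA-treated mice the high-fat diet with 1% LA, with 3 mice per group. LA is linoleic acid, and HYA is a hydroxy fatty acid that bacteria of the gut form from it. The RNA came from whole liver, so that the level of a transcript in a mouse is a mean over all cell types of the organ.

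Hepatocytes are polarized cells. At the sinusoidal membrane they extract conjugated bile acids together with sodium, through the carrier encoded by *Slc10a1* (NTCP), and a wide range of anions and drugs through the organic anion transporting polypeptides encoded by *Slco* genes. At the canalicular membrane, ATP-driven pumps move bile salts (*Abcb11*, BSEP), phosphatidylcholine (*Abcb4*) and glutathione or glucuronide conjugates (*Abcc2*) into bile, and the flippase encoded by *Atp8b1* maintains the lipid asymmetry of that membrane. In cholestasis the liver is known to lower uptake and to raise efflux back to blood, where *Abcc3* and *Abcc4* act, and the bile acid receptor FXR, encoded by *Nr1h4*, is a known activator of *Abcb11*.

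Levels are given as FPKM, which are fragments per kilobase of gene length scaled by the authors to library depth, so that they may be compared between genes. The mice had 17169064 to 25220880 fragments on genes, and the members ranged from 82 fragments in a mouse for *Abcc4* to 36132 for *Slco1b2*. Across the 12 mice the highest mean level was that of *Slco1b2* (250.1 FPKM), followed by *Slc10a1* (217 FPKM), *Abcb11* (136 FPKM), *Abcc2* (109 FPKM) and *Abcc3* (78.7 FPKM). The lowest mean was that of *Abcc4*, at 0.97 FPKM. Genes that overlap a member took few fragments, with means of 2.33 for *Gm13613*, antisense to *Abcb11*, and 6.92 for the pseudogene *Gm17936* within *Abcb4*, against 13691 and 9244 for the members. Differences between groups were estimated with limma on log2(FPKM + 1) in 1 fit over all 12 mice, restricted to the 11083 genes that averaged 1 FPKM or more. A difference was called when its p-value, adjusted over all of these genes by the method of Benjamini and Hochberg (BH), was under 0.05. *Abcc4* lay below this minimum, so that 9 of the 10 members were tested, and the log2 differences of low genes such as *Slco1a4* and *Atp8b1* are understated on this scale.

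RefSeq promoters of GRCm38.p6 were used for 8 of the 10 members, without *Atp8b1* and *Abcc3*. The 250 bases before the start are shown for *Slc10a1*, *Slco1b2*, *Slco1a1* and *Abcb11*, the members whose levels differed most between diets among uptake carriers and bile salt export. They lie at chr12:80968706-80968955 on the minus strand (*Slc10a1*), chr6:141629268-141629517 on the plus strand (*Slco1b2*), chr6:141946963-141947212 on the minus strand (*Slco1a1*) and chr2:69342617-69342866 on the minus strand (*Abcb11*), and each runs 5′ to 3′ toward the gene. Capitals mark every match to 1 of 4 motifs that were searched on both strands.
Slc10a1: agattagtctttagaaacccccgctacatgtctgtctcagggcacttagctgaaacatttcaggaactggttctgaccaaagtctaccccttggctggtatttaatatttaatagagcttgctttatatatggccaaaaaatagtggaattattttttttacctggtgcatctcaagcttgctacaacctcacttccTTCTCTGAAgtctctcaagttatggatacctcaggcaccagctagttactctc
Slco1b2: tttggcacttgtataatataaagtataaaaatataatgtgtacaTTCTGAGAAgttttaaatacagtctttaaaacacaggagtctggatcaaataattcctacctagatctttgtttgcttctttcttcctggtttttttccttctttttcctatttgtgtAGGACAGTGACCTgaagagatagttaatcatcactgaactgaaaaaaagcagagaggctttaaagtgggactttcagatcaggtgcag
Slco1a1: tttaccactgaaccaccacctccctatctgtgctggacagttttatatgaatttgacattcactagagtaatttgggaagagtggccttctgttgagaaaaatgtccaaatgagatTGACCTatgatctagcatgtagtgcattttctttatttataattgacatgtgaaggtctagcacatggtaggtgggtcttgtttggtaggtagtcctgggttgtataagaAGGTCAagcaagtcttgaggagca
Abcb11: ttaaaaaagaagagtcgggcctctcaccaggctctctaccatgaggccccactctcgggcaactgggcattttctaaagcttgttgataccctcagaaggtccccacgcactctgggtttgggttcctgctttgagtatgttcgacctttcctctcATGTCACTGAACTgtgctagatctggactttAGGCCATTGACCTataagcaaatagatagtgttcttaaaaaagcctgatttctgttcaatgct

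The motifs were the inverted repeat of AGGTCA with a spacer of 1 base (IR-1), which FXR and RXR are known to bind, with up to 2 mismatches, TTCNNNGAA, the form known for STAT5, TGACNNNGC, the core known for NRF2, and AGGTCA, the half-site of many nuclear receptors, which also lies within IR-1. None of the 8 members searched held IR-1 without mismatch. With 1 mismatch it was present as AGGCCATTGACCT in *Abcb11*, where it begins 63 bases before the start, and as AGGACAGTGACCT in *Slco1b2*, where it begins 88 bases before the start. *Abcb11* held a further match with 2 mismatches, ATGTCACTGAACT. Up to 2 mismatches were found in 0.959% of all 32851 promoters of this length, and the exact form in 0.00609%. TTCNNNGAA was found in *Slc10a1* and *Slco1b2* (7.02% of all promoters), TGACNNNGC in *Abcc2* and *Abcc4* (10.2%), and AGGTCA in the windows of *Slco1b2*, *Slco1a1*, *Abcb11* and *Abcc2* (14%). For *Slc10a1* and *Abcc4*, which have a second RefSeq start, these counts refer to the start that coincides with the deposited gene. A match describes the letters only.

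The high-fat diet was associated with lower mRNA for most of the sinusoidal uptake carriers. *Slc10a1*, *Slco1b2* and *Slco1a1* fell in control relative to ND-fed mice, and *Slco1a4* did not pass the test. Summed over the 4 genes, uptake carriers were at 690.1 ± 38.2 FPKM (SD, n = 3) in ND-fed and 372 ± 67.3 FPKM in control mice.

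*Slc10a1* (ENSMUSG00000021135, GRCm38 chromosome 12, 80953183 to 80968705) encodes the main sodium-dependent bile acid carrier of hepatocytes. Its level was 281, 289 and 289 FPKM in the ND-fed mice and 131, 187 and 145 FPKM in the control mice. In HYA-treated mice it was 248, 269 and 282 FPKM, and in LA-treated mice 148, 154 and 182 FPKM. The 6 ND-fed and HYA-treated mice all lay above the 6 control and LA-treated mice. The mean in control mice was 1.86-fold below that in ND-fed mice (log2 difference −0.90, SE 0.12, BH-adjusted p = 0.000247 in limma). HYA-treated mice exceeded control mice by a log2 difference of 0.80 (SE 0.12, BH-adjusted p = 0.0168 in limma). The log2 difference of HYA-treated from LA-treated mice was 0.73 (BH-adjusted p = 0.0365 in limma).

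*Slco1b2* (ENSMUSG00000030236, chromosome 6, 141629518 to 141686646) encodes the liver-specific carrier OATP1B2, which takes up unconjugated bile acids, bilirubin conjugates and statins. It was measured at 291, 316 and 317 FPKM in ND-fed mice and at 176, 234 and 188 FPKM in control mice. In HYA-treated mice it was at 257, 283 and 297 FPKM, and in LA-treated mice at 186, 223 and 234 FPKM. As for *Slc10a1*, each HYA-treated mouse lay above each control and each LA-treated mouse, but the gap to the highest of these mice was smaller. In control against ND-fed mice the log2 difference was −0.63 (SE 0.11, BH-adjusted p = 0.00164 in limma). That of HYA-treated from control mice was 0.49 (standard error 0.11), with a BH-adjusted p of 0.0492 in limma, just under the threshold, and the call was kept in only 6 of 21 alternatives.

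*Slco1a1* (ENSMUSG00000041698, chromosome 6, 141907282 to 141946962) encodes OATP1A1, a carrier of steroid sulfates and bile acids that is known for a male-biased level in mouse liver. It had the widest range of all members, with 67.6, 86.9 and 104 FPKM in ND-fed mice and 3.36, 17.5 and 10.5 FPKM in control mice. The HYA-treated mice were at 36.6, 49.7 and 57.4 FPKM, and the LA-treated mice at 9.02, 11.1 and 13.02 FPKM. All HYA-treated mice thus lay between the highest control mouse and the lowest ND-fed mouse. The mean was 8.23-fold lower in control than in ND-fed mice (log2 difference −3.14, SE 0.42, BH-adjusted p = 0.000251 in limma). HYA-treated mice had a 4.58-fold higher mean than control mice (log2 difference 2.30, 95% interval 1.38 to 3.22). Against LA-treated mice the log2 difference of the HYA-treated mice was 2.01, with an interval of 1.09 to 2.93 and an adjusted p of 0.0620 (limma), which missed the threshold.

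*Slco1a4* (ENSMUSG00000030237, chromosome 6, 141805440 to 141856199) encodes OATP1A4, a related carrier whose gene lies in the same cluster on chromosome 6. It was at 8.27, 8.46 and 12.8 FPKM in the ND-fed mice and at 7.61, 8.78 and 6.92 FPKM in the control mice. The supplemented mice were at 7.66, 9.24 and 9.84 FPKM with HYA and at 6.79, 7.85 and 10.8 FPKM with LA. The 4 groups overlapped. The log2 difference was −0.29 for control against ND-fed mice (95% interval −0.69 to 0.11) and 0.18 for HYA-treated against control mice (−0.22 to 0.57), which leaves room for a modest difference in either direction. Of the other *Slco1a* genes of the cluster, *Slco1a5* was listed at 0 in all groups and *Slco1a6* at a mean of at most 0.0041 FPKM. No stretch of 150 bases was shared between a transcript of a member and that of another gene in GENCODE M21, so that an exact match of this length assigns a read to 1 of these carriers.

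**Figure D1:**
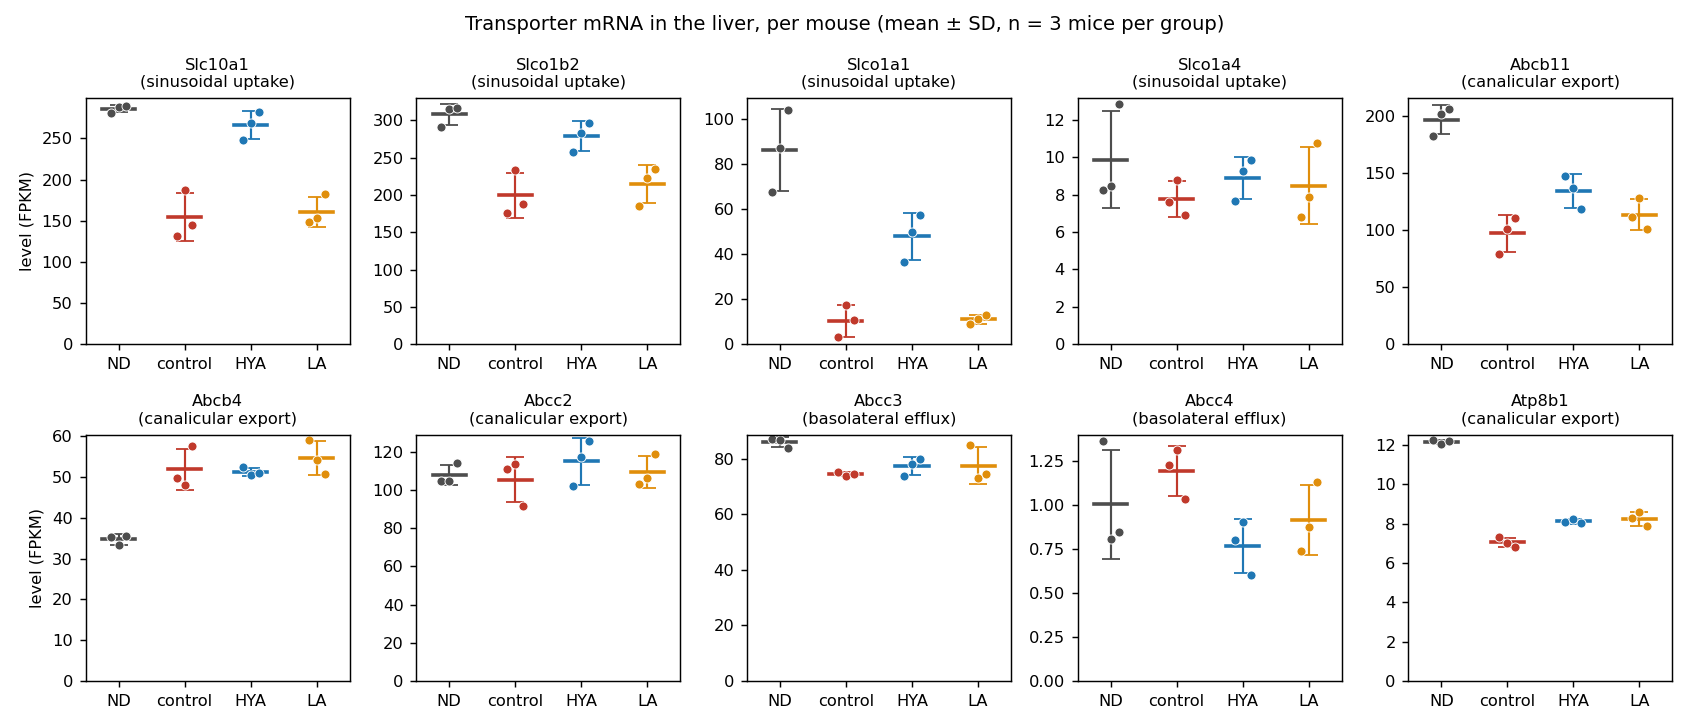
Level of each of the 10 transporter mRNAs in FPKM (vertical axes, all starting at 0) by diet group, with 1 point per mouse and bars for the mean ± SD of 3 mice. *Slc10a1* and *Slco1b2* were high in ND-fed and HYA-treated mice and low in control and LA-treated mice. *Slco1a1* was high in ND-fed mice, low in control and LA-treated mice, and between these in HYA-treated mice. *Abcb4* was lower in ND-fed mice than in the other groups, and *Abcc2* overlapped throughout.

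Canalicular genes did not move in 1 direction. In control relative to ND-fed mice, *Abcb11* and *Atp8b1* fell, *Abcb4* rose, and *Abcc2* did not pass the test. In HYA-treated against control mice 0 of the 4 passed the test in limma, and *Abcb11* and *Atp8b1* had an unadjusted p under 0.05, as did 18.5% of all genes tested.

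*Abcb11* (ENSMUSG00000027048, chromosome 2, 69238282 to 69342616), the bile salt export pump, was at 182, 202 and 206 FPKM in ND-fed mice and at 79.1, 101 and 111 FPKM in control mice. HYA-treated mice had 148, 137 and 119 FPKM, and LA-treated mice 111, 128 and 101 FPKM. Every ND-fed mouse exceeded every mouse on the high-fat diet, and the HYA-treated mice lay above the control mice but overlapped the LA-treated mice. The mean of control mice was 2.03-fold below that of ND-fed mice (log2 difference −1.02, SE 0.13, BH-adjusted p = 0.000196 in limma). Between HYA-treated and control mice the log2 difference was 0.47 (95% interval 0.19 to 0.76) and did not pass the test (BH-adjusted p = 0.0796 in limma). HYA-treated mice lay below ND-fed mice by a log2 difference of −0.55 (BH-adjusted p = 0.0160 in limma). This call was lost without ND-fed mouse 2 (0.0560) or 3 (0.0508), without HYA-treated mouse 3 (0.0580), and under scaling to hepatocyte markers (−0.29, BH-adjusted p = 0.167 in limma).

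*Abcb4* (ENSMUSG00000042476, chromosome 5, 8893717 to 8959231), the phosphatidylcholine exporter that protects the bile duct from bile salts, was at 35.4, 33.3 and 35.6 FPKM in ND-fed mice and at 49.8, 48.2 and 57.7 FPKM in control mice. The values were 52.4, 50.4 and 51.1 FPKM in HYA-treated and 59.1, 54.2 and 50.7 FPKM in LA-treated mice. The 9 mice on the high-fat diet therefore all exceeded the 3 ND-fed mice, and the 3 high-fat groups overlapped. Control mice exceeded ND-fed mice by a log2 difference of 0.56 (SE 0.08, BH-adjusted p = 0.000263 in limma), and those of HYA-treated and LA-treated from ND-fed mice were 0.55 and 0.64. Between HYA-treated and control mice the log2 difference was −0.01, with a 95% interval of −0.18 to 0.15.

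*Atp8b1* (ENSMUSG00000039529, chromosome 18, 64528979 to 64661000), the aminophospholipid flippase of the canalicular membrane, was at 12.2, 12.0 and 12.2 FPKM in ND-fed and at 7.30, 7.04 and 6.83 FPKM in control mice. HYA-treated mice were at 8.06, 8.24 and 8.03 FPKM and LA-treated mice at 8.27, 8.57 and 7.87 FPKM. The spread within groups was the smallest of the members in ND-fed mice, at 0.849% of the mean, and each supplemented mouse lay above each control mouse. Control mice differed from ND-fed mice by −0.71 on the log2 scale (SE 0.05, BH-adjusted p = 3.11e-06 in limma). The log2 differences from control mice were 0.18 in HYA-treated mice (adjusted p = 0.0709) and 0.20 in LA-treated mice (adjusted p = 0.999), neither of which passed the test in limma.

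*Abcc2* (ENSMUSG00000025194, chromosome 19, 43782192 to 43840740), the canalicular pump for conjugated bilirubin and glutathione conjugates, was at 105, 105 and 114 FPKM in ND-fed mice and at 111, 113 and 91.8 FPKM in control mice. It was at 102, 117 and 126 FPKM in HYA-treated and at 103, 106 and 119 FPKM in LA-treated mice. All groups overlapped. The log2 difference of control from ND-fed mice was −0.04 (95% interval −0.26 to 0.18), and that of HYA-treated from control mice 0.13 (−0.09 to 0.34).

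Of the basolateral efflux pumps, *Abcc3* (ENSMUSG00000020865, chromosome 11, 94343295 to 94392997), which exports glucuronides and bile acids to blood, showed a small decrease. It was at 87.2, 86.8 and 83.9 FPKM in ND-fed and at 75.2, 73.7 and 74.3 FPKM in control mice, with no overlap. HYA-treated mice had 73.7, 78.2 and 79.8 FPKM, and LA-treated mice 85.0, 72.8 and 74.3 FPKM. On the log2 scale control mice differed from ND-fed mice by −0.21 (SE 0.06, BH-adjusted p = 0.0240 in limma). This call was lost when any of the control mice or ND-fed mouse 1 or 2 was left out (BH-adjusted p 0.0520 to 0.0653 in limma), and the sign turned with TPM, as given in the paragraph on library scaling.

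*Abcc4* (ENSMUSG00000032849, chromosome 14, 118482692 to 118706219), a pump for cyclic nucleotides and bile acid conjugates, was low, with 82 to 179 fragments per mouse. Its mean of 0.97 FPKM lay just under the minimum of 1 FPKM. Its level was 1.36, 0.81 and 0.84 FPKM in the ND-fed mice and 1.23, 1.31 and 1.03 FPKM in the control mice. With HYA it was 0.80, 0.91 and 0.60 FPKM, and with LA 0.74, 0.87 and 1.13 FPKM. The HYA-treated mice lay below the control mice, and the other groups overlapped. When genes with a mean of at least 10 fragments were tested, the log2 difference of HYA-treated from control mice was −0.31 (95% interval −0.56 to −0.06, BH-adjusted p = 0.171 in limma). The pseudocount of 1 compresses this difference at such levels, and it was −0.67 with voom on fragments (BH-adjusted p = 0.114) and −0.55 with TPM (0.114), while the ratio of the FPKM means was 0.645.

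Over the 9 tested members, 1 rose and 6 fell in control against ND-fed mice, where 16.2% of all 11083 genes tested rose and 19.1% fell. The median log2 difference of the members was −0.63, against −0.04 over all genes tested. *Slco1a1* and *Abcb11* also passed an absolute log2 fold change of 1, as did 3.88% of all genes, and the ranges of the groups did not overlap for 7 members and for 45.6% of all genes.

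In HYA-treated against control mice, 3 members rose and 0 fell, all 3 of them uptake carriers, where 1.57% of all genes tested rose and 1.23% fell. The median log2 difference of the members was 0.18, against 0.02 over all genes. Of these members *Slco1a1* passed the fold threshold, as did 0.307% of all genes. The ranges did not overlap for 5 of the 9 tested members and for *Abcc4*, and for 21.6% of all genes. The calls rested on few mice. That of *Slc10a1* was lost when control mouse 1 was left out (BH-adjusted p = 0.0553 in limma), and likewise for the HYA-treated mice 2 (0.0825) and 3 (0.0509). That of *Slco1a1* was lost on omission of control mouse 3 (BH-adjusted p = 0.0569 in limma), or of the HYA-treated mice 2 (0.12) and 3 (0.0744) in turn. Its log2 difference still stayed between 1.72 and 2.76 in all alternatives. Over all genes, 17 were called higher and 11 lower without control mouse 1, and 46 and 33 without control mouse 3. Without HYA-treated mouse 2 it was 0 of 11093 genes, and without HYA-treated mouse 3 it was 27 and 33.

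LA, given at the same share of the diet, was not associated with a called difference from control mice. Of the members, 0 passed the test in limma (0% of all genes), voom on fragments likewise gave 0, and 1 member, *Atp8b1*, had an unadjusted p under 0.05, as did 2.65% of all genes (294 of 11083). The groups did not overlap for this gene alone, against 7.55% of all genes. The log2 differences of LA-treated from control mice had 95% intervals of −0.19 to 0.34 for *Slc10a1*, −0.14 to 0.36 for *Slco1b2*, −0.63 to 1.21 for *Slco1a1* and −0.06 to 0.52 for *Abcb11*. For *Atp8b1* the interval was 0.09 to 0.30. The comparisons of either supplement with control mice share those mice, and the supplements are set directly against each other in the next comparison.

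Between the supplements, *Slc10a1* was higher with HYA than with LA and was the only member called, where 0.235% of all genes tested were higher and 0.253% lower. Without fold threshold the ranges did not overlap for *Slc10a1*, *Slco1b2* and *Slco1a1*, and for 25.2% of all genes, and 0.108% of all genes passed both thresholds. The log2 difference of *Slco1b2* was 0.38, with a 95% interval of 0.13 to 0.63 and an adjusted p of 0.124 (limma). Leaving out any ND-fed, HYA-treated or LA-treated mouse raised the adjusted p of *Slc10a1* to between 0.0537 and 0.183 (limma). Its call was thus lost without any 1 of these 9 mice. With an ND-fed mouse left out the log2 difference stayed at 0.73, since ND-fed mice enter this comparison only through the shared fit. Over all genes, 0 were called without HYA-treated mouse 2 or LA-treated mouse 1 or 2, beside 26 higher and 28 lower with all mice. Under scaling to hepatocyte markers the called member was another, with *Slc10a1* at 0.46 (BH-adjusted p = 0.0612 in limma) and *Slco1a1* at 1.76 (0.0428).

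**Figure D2:**
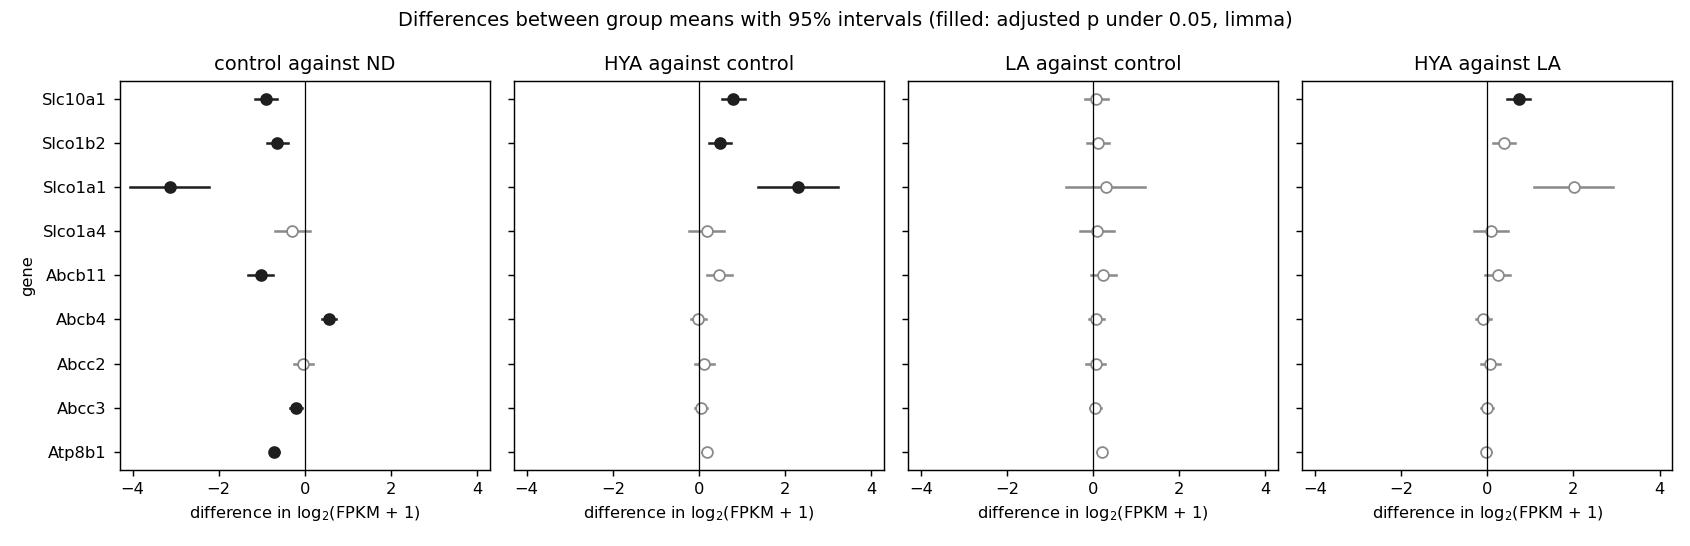
Difference between group means in log2(FPKM + 1) (horizontal axes) for the 9 tested members (vertical axis) in 4 comparisons, with 95% intervals from limma and filled points for an adjusted p under 0.05. In control against ND-fed mice 7 members were called and *Abcb4* alone lay to the right, in HYA-treated against control mice 3 uptake carriers were called, and in LA-treated against control mice none.

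HYA-treated mice were also set against ND-fed mice, which differ from them in diet as well as in HYA. *Abcb4* was higher and *Abcb11* and *Atp8b1* were lower (1 higher and 2 lower of 9, where 8.72% of all genes tested were higher and 7.85% lower). The uptake carriers did not pass the test, with log2 differences of −0.11 for *Slc10a1* (95% interval −0.37 to 0.16), −0.14 for *Slco1b2* (−0.40 to 0.11) and −0.84 for *Slco1a1* (−1.75 to 0.08). All HYA-treated mice were nevertheless below all ND-fed mice for *Slco1a1*, with a 1.80-fold lower mean, and this gene was called when the fit held these groups alone (BH-adjusted p = 0.0369 in limma) and without control mouse 1 (0.0346). In LA-treated against ND-fed mice, *Abcb4* was higher and 5 members were lower, namely *Slc10a1*, *Slco1b2*, *Slco1a1*, *Abcb11* and *Atp8b1*, where 14.4% of all genes were higher and 16.6% lower.

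Ratios between members within a mouse do not depend on the scaling of its library. The ratio of summed uptake carriers to summed canalicular genes was 1.94 to 1.99 in ND-fed, 1.28 to 1.66 in control, 1.77 to 2.13 in HYA-treated and 1.24 to 1.58 in LA-treated mice. HYA-treated mice thus overlapped ND-fed mice and lay above all control and LA-treated mice. *Slco1a1* made up 10.4% to 14.4% of summed uptake FPKM in ND-fed mice, 1.06% to 3.91% in control, 6.66% to 8.88% in HYA-treated and 2.58% to 2.96% in LA-treated mice. *Slco1a1* exceeded its neighbour *Slco1a4* by 8.08-fold to 10.3-fold in ND-fed and by 4.78-fold to 5.83-fold in HYA-treated mice, whereas the ratio was 0.441 to 1.99 in control and 1.21 to 1.41 in LA-treated mice.

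At the canaliculus, the ratio of the phospholipid exporter *Abcb4* to the bile salt pump *Abcb11* was 0.165 to 0.194 in ND-fed, 0.476 to 0.630 in control, 0.354 to 0.430 in HYA-treated and 0.423 to 0.531 in LA-treated mice. The HYA-treated mice lay between the ND-fed and the control mice without overlap with either, and overlapped the LA-treated mice. The ratio of *Slc10a1* to *Slco1b2* was 0.914 to 0.965 in ND-fed and 0.951 to 0.967 in HYA-treated mice, and 0.745 to 0.799 in control and 0.689 to 0.796 in LA-treated mice. An exact two-sided permutation test of 3 mice against 3 cannot give a p-value below 0.1, so that these ratios are given as ranges.

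**Figure D3:**
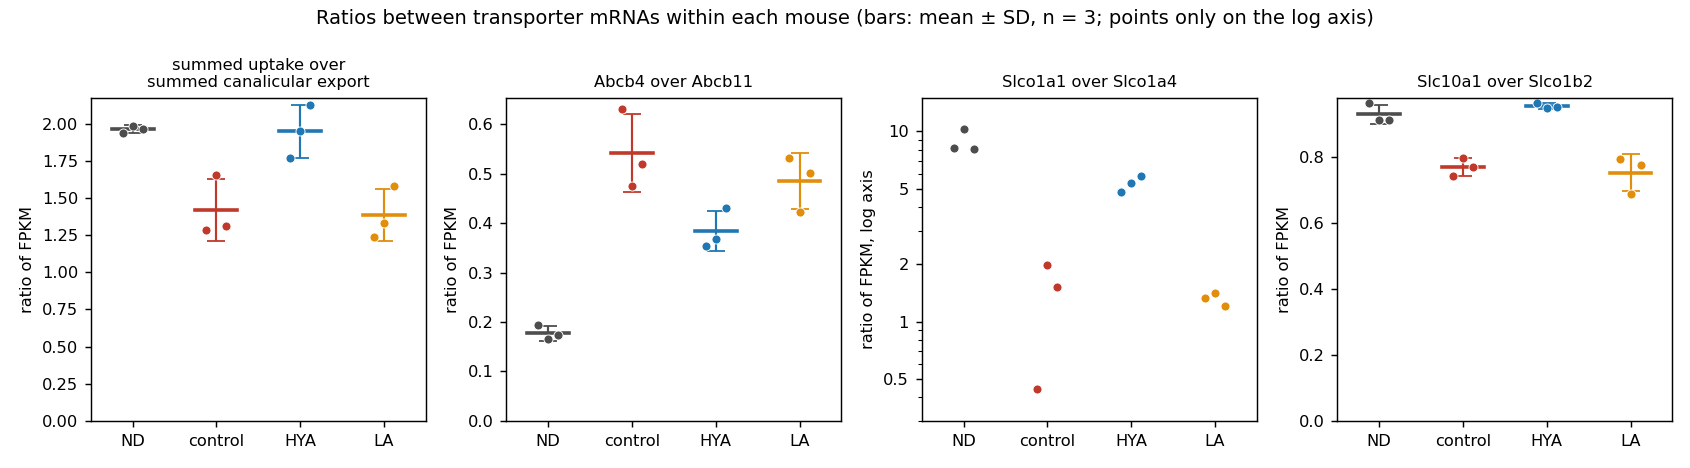
Ratios of FPKM between transporter mRNAs within each mouse (vertical axes, the third on a log scale) by diet group, with 1 point per mouse and, on the linear axes, the mean ± SD of 3 mice. For uptake over canalicular genes, *Slco1a1* over *Slco1a4* and *Slc10a1* over *Slco1b2*, the HYA-treated mice lay above the control and LA-treated mice. For *Abcb4* over *Abcb11* they lay between ND-fed and control mice.

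The 3 uptake carriers that were called also varied together between mice. Pearson's r of log2(FPKM + 1) over the 12 mice was 0.97 for *Slc10a1* with *Slco1b2*, 0.98 for *Slc10a1* with *Slco1a1* and 0.97 for *Slco1b2* with *Slco1a1*. After the group means were subtracted it was still 0.91, 0.86 and 0.83. In the control group, mouse 2 had the highest and mouse 1 the lowest level of all 3 genes. The geometric mean of the hepatocyte markers had the same order in that group, with 658 FPKM in mouse 1, 883 FPKM in mouse 2 and 763 FPKM in mouse 3. It was 809, 890.1 and 954 FPKM in the HYA-treated mice 1, 2 and 3. In the ND-fed mice 1, 2 and 3 it was 973, 1049 and 1166 FPKM. The carriers had the same order as this mean in these 2 groups also. Single markers did not all share it. *Alb* had that order in the control mice but not in the other 2 groups. It was at 30137, 29044 and 28483 FPKM in ND-fed mice 1, 2 and 3. In HYA-treated mice 1, 2 and 3 it was at 24160, 24900 and 24590 FPKM. In the LA-treated mice 1, 2 and 3 the marker mean was 708, 756 and 735 FPKM, whereas all 3 carriers were highest in mouse 3. The part of the markers in the shared variation was not tested. *Abcb11* correlated with these 3 genes at 0.79 to 0.88 over the 12 mice but at only 0.03 to 0.44 within groups. *Abcc2* and *Slco1a4* correlated at 0.71 over all mice and 0.79 within groups. These are descriptions with no test, since both genes of a pair were read from the same 12 libraries.

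Apart from the members themselves, which were left out of this ranking, 10013 tested protein-coding genes were compared. Those most like *Slco1a1* over the 12 mice were *Mup12* (r = 0.989), *Ahcy* (0.986) and *Dpys* (0.986). *Mup12* encodes a major urinary protein of a near-identical family, whose values are uncertain as to the member. Most like *Slc10a1* were *Phyh* (0.976), *Ephx2* (0.973) and *Cyp2e1* (0.972), and most like *Abcb11* were *Gjb1* (0.984), which encodes the gap junction protein of hepatocytes, *Amdhd1* (0.981) and *Alkbh7* (0.979). The mean level of *Cyp2e1* was 3195 FPKM in ND-fed, 1800 FPKM in control, 3087 FPKM in HYA-treated and 1810 FPKM in LA-treated mice, an order shared with *Slc10a1*.

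Most hepatocyte markers moved with these results. Of 8 markers, 6 fell in control against ND-fed mice, and their median log2 difference was −0.49. *Alb* (albumin) had a log2 difference of −0.51, *Serpinc1* (antithrombin) of −0.51 and *Fgb* (fibrinogen) of −0.90. In HYA-treated against control mice 1 of the 8, *Apoh*, rose (log2 difference 0.38, BH-adjusted p = 0.0444 in limma), with a median of 0.20. Their levels in ND-fed mice summed to 36595 to 37412 FPKM, those in control mice to 23844 to 27621 FPKM, those in HYA-treated mice to 30184 to 31350 FPKM and those in LA-treated mice to 26271 to 27057 FPKM. In whole liver, fewer hepatocytes and less RNA of these genes per hepatocyte cannot be told apart.

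Each mouse was also scaled to the geometric mean of its 8 hepatocyte markers, a choice made after the data were seen. The markers weigh equally in this mean, and *Pck1* and *Tat* spread widely within a group. *Pck1* was at 256 to 579 FPKM in ND-fed mice and *Tat* at 260 to 603 FPKM in control mice. Under this scaling the median of all genes in control against ND-fed mice moved from −0.04 to 0.34. In that comparison 5782 of 11083 genes were called higher and 304 lower, in place of 1795 and 2115. The decreases of *Slc10a1* (log2 difference −0.43), *Slco1a1* (−2.69) and *Abcb11* (−0.55) and the increase of *Abcb4* (1.02) remained called, those of *Slco1b2* (−0.16) and *Atp8b1* (−0.28) did not, and *Abcc2* was called higher (0.43). For HYA-treated against control mice under this scaling, *Slc10a1* (0.59, adjusted p = 0.0188) and *Slco1a1* (2.12, adjusted p = 0.0127) remained called in limma and *Slco1b2* (0.28, adjusted p = 0.162) did not. With TPM, in which each mouse has the same total, the median of all genes was 0.18 in control against ND-fed mice, with 4417 of 13588 genes called higher and 775 lower. The value of *Abcc3* turned to 0.03 and was not called, and the other 6 calls among members were kept. In HYA-treated against control mice, 174 genes were called higher and 136 lower with the deposited FPKM, 88 and 408 with TPM, and 30 and 69 with the hepatocyte marker scaling.

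**Figure D4:**
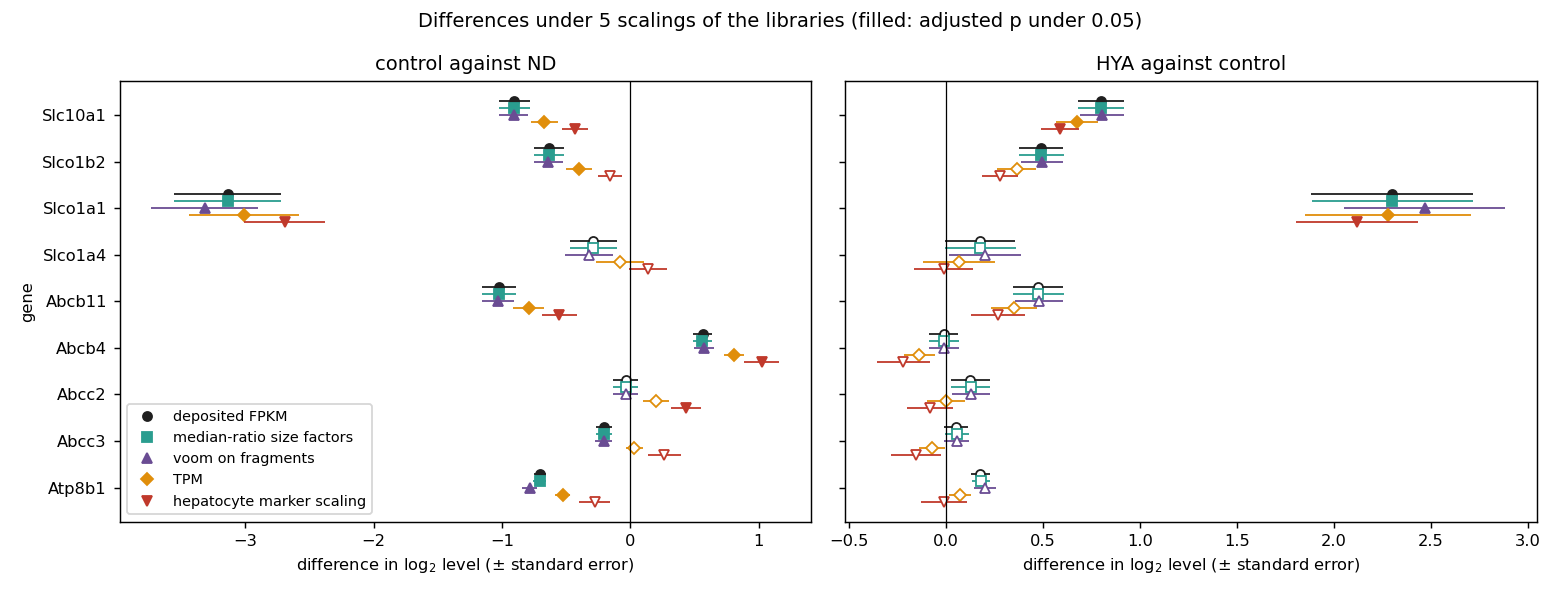
Log2 differences (horizontal axes, ± standard error) of the 9 tested members (vertical axis) for control against ND and HYA against control under 5 scalings of the libraries, with filled symbols for an adjusted p under 0.05. *Slco1a1*, *Slc10a1*, *Abcb11* and *Abcb4* kept their sign and call in control against ND under all 5, and *Slco1b2*, *Atp8b1*, *Abcc3*, *Abcc2* and *Slco1a4* changed call or sign with the hepatocyte marker scaling.

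Markers of the other epithelial cell of the liver, the cholangiocyte, were low, with a summed level of 7.12 to 12.9 FPKM over all 12 mice for 6 genes, and *Krt7* and *Cftr* had group means of at most 0.19 FPKM. *Epcam* alone among the 3 tested rose in control against ND-fed mice and fell in HYA-treated against control mice, with 0.898 FPKM in ND-fed, 2.38 FPKM in control, 0.863 FPKM in HYA-treated and 1.71 FPKM in LA-treated mice. Stellate cell markers summed to 31.5 to 41.5 FPKM in ND-fed and 58.4 to 73.5 FPKM in control mice, with 4 of 7 called higher, among them *Col1a1*, *Dcn* and *Pdgfrb*, and *Col1a1* alone called lower in HYA-treated against control mice. Of 7 Kupffer cell and macrophage markers 2 rose, among them *Cd68*, and 2 fell (*Marco* and *Timd4*) in control against ND-fed mice, of 7 endothelial markers 2 rose (*Lyve1* and *Pecam1*), and both tested leukocyte markers rose (*Itgax* and *Ptprc*), of which *Itgax* fell in HYA-treated against control mice. The part of these cells in the levels of the members was not tested.

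Other transporters of bile acids, lipids and organic anions were listed alongside, and 14 of 20 were tested. In control against ND-fed mice 5 rose and 4 fell, with a median log2 difference of −0.11. *Slco2a1*, the prostaglandin carrier, fell from 9.51 ± 0.855 FPKM on the normal diet to 2.47 ± 0.435 FPKM in control mice (log2 difference −1.61), *Slc27a5*, the enzyme and carrier that activates bile acids for conjugation, from 441 ± 11.3 to 259 ± 38.4 FPKM (−0.77), and *Abcc6* from 46.9 ± 1.78 to 35.6 ± 3.14 FPKM (−0.39; all SD, n = 3). In HYA-treated against control mice *Slc27a5* alone rose, to 348 ± 6.77 FPKM (log2 difference 0.44, BH-adjusted p = 0.0389 in limma). In LA-treated mice it was at 266 ± 13.6 FPKM and was not called against control mice. When the supplements were set against each other, 0 of the 14 genes were called, *Slc27a5* included. The median over the 14 genes was 0.18 in HYA-treated against control mice.

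Of 15 regulators of these transporters, 14 were tested. In control against ND-fed mice *Nfe2l2*, which encodes the stress-response factor NRF2, rose (log2 difference 0.73), and 5 fell, among them the nuclear receptor genes *Hnf4a* (−0.54) and *Nr5a2* (−0.35). In HYA-treated against control mice 0 of 14 passed the test in limma, and 4 had an unadjusted p under 0.05, beside the 18.5% of all genes. The bile acid receptor gene *Nr1h4*, named after its values were seen, was at 51.8 ± 2.73 FPKM in ND-fed, 50.4 ± 5.91 FPKM in control, 51.0 ± 4.45 FPKM in HYA-treated and 49.9 ± 4.91 FPKM in LA-treated mice. Its 95% interval was −0.26 to 0.18 on the log2 scale for control against ND-fed mice. *Nr0b2* of the same list, also named after its values were seen, fell in that comparison (log2 difference −0.55, BH-adjusted p = 0.0236 in limma). It was at 37.7 ± 3.96 FPKM in ND-fed, 26.0 ± 7.46 FPKM in control, 33.8 ± 2.99 FPKM in HYA-treated and 26.3 ± 3.06 FPKM in LA-treated mice. These are levels of mRNA, and receptor activity was not tested.

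Genes that place or support transporters in the canalicular membrane formed a further list, and 12 of 13 were tested. In control against ND-fed mice *Vipas39* rose (log2 difference 0.25) and *Tmem30a* (−0.47) and *Rdx* (−0.36) fell. *Tmem30a* encodes CDC50A, the subunit that the ATP8B1 flippase requires to leave the endoplasmic reticulum. It was at 40.3 ± 1.28 FPKM in ND-fed, 28.8 ± 1.59 FPKM in control, 33.8 ± 0.552 FPKM in HYA-treated and 30.0 ± 0.453 FPKM in LA-treated mice (SD, n = 3). Its rise in HYA-treated against control mice was called, just under the threshold (log2 difference 0.23, SE 0.05, BH-adjusted p = 0.0459 in limma). That of *Atp8b1* itself was not called (0.18, SE 0.05, BH-adjusted p = 0.0709 in limma). Whether these rises differ was not tested. *Rdx* encodes radixin, which anchors ABCC2 to the actin of the canaliculus, and *Abcc2* mRNA overlapped between the groups.

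**Figure D5:**
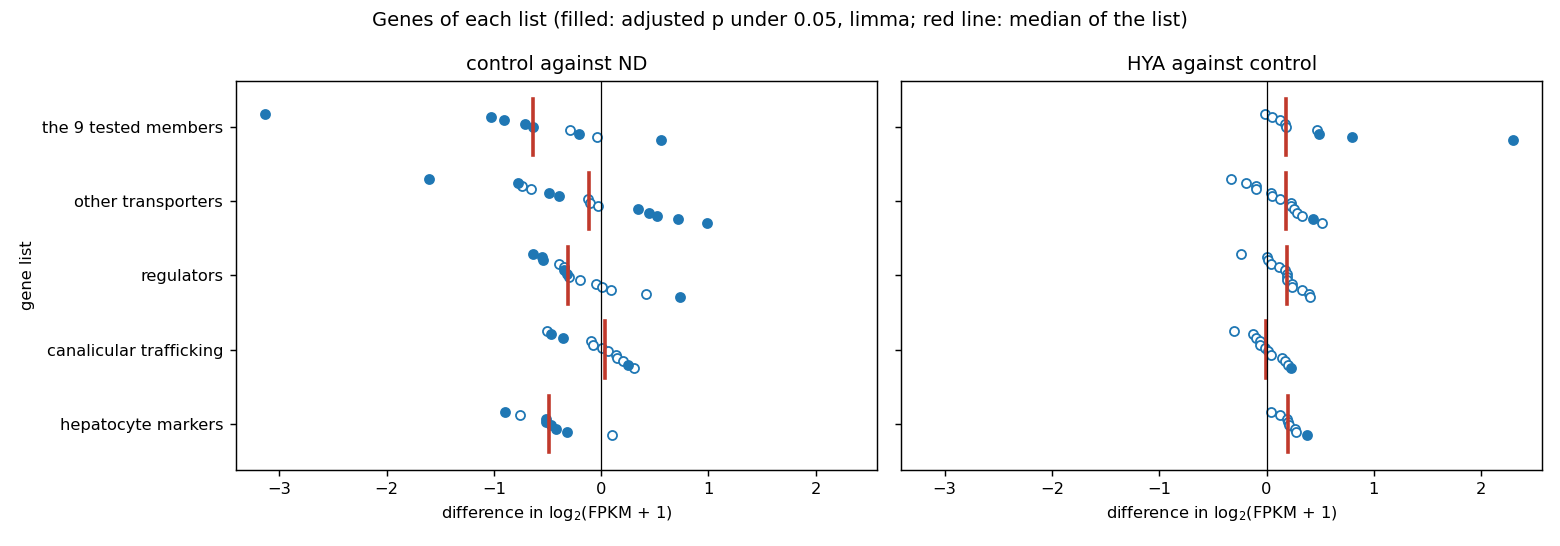
Differences in log2(FPKM + 1) (horizontal axes) of the tested genes of 5 lists (vertical axis) for control against ND and HYA against control, with 1 point per gene, filled for an adjusted p under 0.05 in limma, and a red line at the median of each list. In control against ND the medians were −0.63 for the members, −0.11 for other transporters, −0.31 for regulators, 0.04 for canalicular trafficking and −0.49 for hepatocyte markers. In HYA against control they were 0.18, 0.18, 0.19, −0.0022 and 0.20.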

How the data were processed

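Liver mRNA of 12 mice was sequenced from both ends by Novogene on the Illumina HiSeq platform. The submitters' processing notes name fastp, HISAT2 2.0.5, featureCounts 1.5.0-p3 and the build GRCm38, without settings. Strand, multi-mapped reads, annotation release and library scaling are not given in the sources used here. The table the authors deposited holds FPKM for each gene in each of the mice and the gene length in bases by which values were divided. The methods give TPM, but the deposited FPKM columns summed to 342146 to 429286, whereas TPM sum to the same total in each sample. Values multiplied by gene length were whole multiples of 1 step in 100% of cases (within 0.05 of a fragment), which gave fragments per gene and a depth of 17169064 to 25220880 per mouse, with a median of 19610557.

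Genes averaging 1 FPKM or more were tested on log2(FPKM + 1) with limma 3.58.1 in R 4.3.3 (all 12 mice, empirical Bayes with trend, two-sided, Benjamini-Hochberg over 11083 genes), and the fit was tested on simulated data. Tables and figures were made with Python 3.11.15 and matplotlib 3.10.9.

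The members and lists were chosen with earlier results of these data known. Named are all 10 members, per other list up to 3 called genes with the lowest p in control against ND and in HYA against control, and, for the 3 members with the widest range of group means, the 3 protein-coding genes with the highest correlation. The alternatives were a pseudocount of 0.1, no filter, a filter of 10 mean fragments, median-ratio size factors, TPM, voom on fragments, the 2 groups alone, a replicate block, each mouse left out in turn, and, added after the data were seen, scaling to hepatocyte markers. Neither the labels nor the paper say that the numbers pair mice, so they were not taken to. Deviations of same-numbered mice correlated at −0.40 to 0.29 over 18 pairs, which does not exclude a pairing. The level of 1 listed cholangiocyte marker is not given, and its list was summed over the other genes.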

Additional observations from a re-analysis of the deposited data

How the results depend on the processing

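Over 21 alternatives, the members called in control against ND numbered 5 to 7, and *Slc10a1*, *Slco1a1*, *Abcb11* and *Abcb4* were called in each. With mice left out in turn, the number called in limma was 6 to 7 in control against ND, 0 to 3 in HYA against control, 0 to 2 in HYA against LA, 2 to 4 in HYA against ND, 6 to 7 in LA against ND and 0 in LA against control. Over all genes, 0 of 11093 were called in HYA against control without HYA-treated mouse 2. Without control mouse 2, 377 were higher and 274 lower. In HYA against LA 0 were called without HYA-treated mouse 2 or LA-treated mouse 1 or 2. In control against ND 1347 to 1769 genes were higher and 1462 to 2079 lower as mice were left out. The number of members in HYA against control was 1 with no filter on low values (41 genes higher and 64 lower of 26045). It was 0 when only the 2 groups were fitted (0 of 11083 genes). In HYA against LA the number of members was 0 with no filter (0 of 26045 genes). It was 2 with voom on fragments (117 genes higher and 113 lower) and 2 with only the 2 groups fitted (61 and 33). With the replicate number as a block 3 members were called in HYA against LA, *Slco1b2* and *Slco1a1* being added. The block moved no other number of called members by over 1.5 times. Over all genes the block called 146 higher and 112 lower in HYA against LA, beside 26 and 28 in the main fit. In HYA against control it called 253 and 196, beside 174 and 136. Correlations of deviations were −0.40 to 0.29 for same-numbered and −0.38 to 0.39 for other mice. With 3 mice per group these do not settle whether the numbers pair mice, and neither the labels nor the paper say so. Scaling to hepatocyte markers, added after the data were seen, left 1 member called in HYA against ND, and it turned *Abcc2* in control against ND (0.43, called), *Abcc3* in control against ND (0.26) and LA against ND (0.37, called), and *Slco1b2* in LA against ND (0.0050). TPM turned *Abcc3* in control against ND (0.029). The shift in the median of all genes under these scalings stands in the report, and no other cause was tested. Of 1134 values of single members, 49 lost and 11 gained a call in the same direction, and 45 changed sign, 5 of them with a call before or after.

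Depth did not limit the abundant members, with at least 381 fragments in every mouse for the 3 called uptake carriers, but *Abcc4* had 82 to 179. With 3 mice per group, the interval of *Slco1a1* in LA against control spans −0.63 to 1.21, so that differences within these bounds could not be told from none.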
